A study of Chlamydomonas reinhardtii with 5 samples.

Results

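The genes described here are those whose transcripts were low only in the library of C. reinhardtii cells given 50 Gy of γ-rays (GR50). They were chosen on the measured values: a gene had to average 10 raw counts or more over the 5 libraries and, after scaling by size factors and adding 1, to lie in GR50 at less than 0.5 times its value in each of the other 4 libraries. Of the 17742 counted genes, 13976 reached that mean and 114 of these, or 0.816%, met the rule. Shares of all genes below refer to the 13976. The 15 annotated ORFs that the study lists as changed by both radiation types were left out beforehand, and 0 of them would have met the rule. Every value of GR50 against another library is therefore a description of how these GR50-low genes were chosen, and it carries no test.

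The cells were wild-type C. reinhardtii of strain CC-125, a single-celled green alga, and there was 1 library each of GR50, GR6 (6 Gy of γ-rays), XR50 (50 Gy of X-rays), XR6 (6 Gy of X-rays) and the mock, which was not irradiated. The study asked how the 2 radiation types act on the alga at a low and at a high dose. The γ-rays came from a 60Co source and lasted 1 h at either dose, and these cells were kept in larger tubes without being concentrated. For X-rays the cells were concentrated in microcentrifuge tubes and exposed for 22.2 min at 6 Gy and 8.1 min at 50 Gy, so that radiation type, handling and exposure time cannot be told apart. With 1 library per condition no spread between replicates is known and no p-value can be given, and all intervals below are exact (Clopper-Pearson) 95% intervals of the ratio of a pair of counts, which cover counting error only.

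γ-rays and X-rays are both ionizing radiation, which breaks DNA strands and produces reactive oxygen species in the cell. Green algae answer such damage by changing the transcription of many genes, some of which are raised and others lowered. The reference pairs each counted gene with its ORF name and its position only, and for this reason the GR50-low genes are given by ORF name with no role. RNA-Seq counts are shares of a library, so that fewer transcripts per cell and a larger share taken by other transcripts cannot be told apart.

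Reads counted on genes numbered between 18364833 and 20330055 per library, and between 15854 and 15891 genes had at least 1 count. GR50 was the most deeply counted of the 5 libraries, with 20330055 reads on genes. Normalized counts below are raw counts divided by the size factor of the library. They are not scaled by gene length, so that a high count tells of read support and not of transcript abundance relative to another gene.

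The GR50-low genes were mostly genes of low counts. Their mean raw count ranged from 10 to 1235 with a median of 30.6, whereas the median of all 13976 genes was 175.8. Of the 114 genes, 39 averaged 50 counts or more and 75 averaged fewer. In GR50 itself, 22 of the genes had 3 counts or fewer, and 2 of these had 0. The median normalized count of the 114 genes was 9.61 in GR50, against 27.9 in GR6, 37.9 in XR50, 37.3 in XR6 and 36.2 in the mock. The GR50 values lay below those of the other libraries by the choice of the genes, and among the other libraries GR6 had the lowest median.

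**Figure D1:**
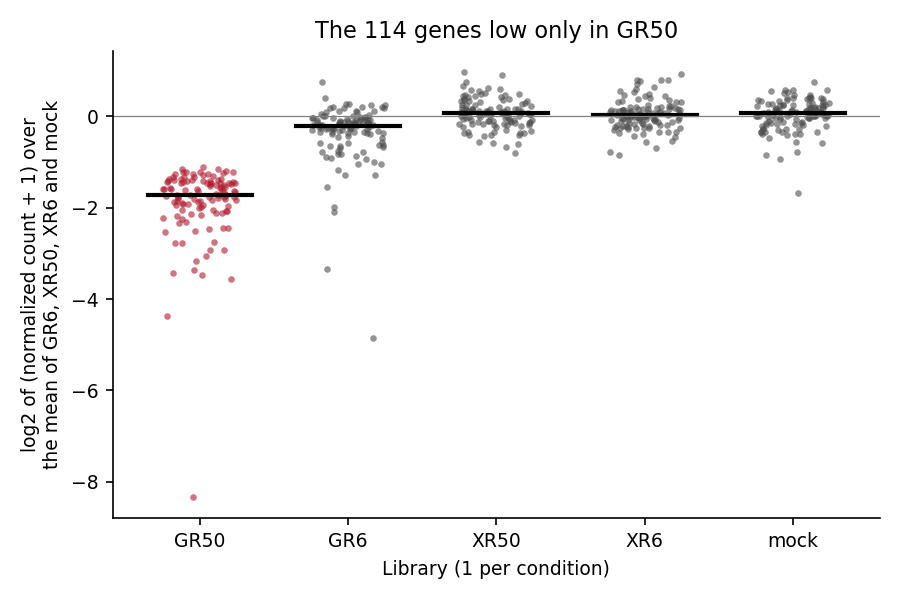
Each point is 1 of the 114 GR50-low genes, and the y axis gives log2 of its normalized count plus 1 over the mean of GR6, XR50, XR6 and the mock. Black bars are medians over the genes; the median in GR50 is -1.72, a few points of GR6 lie far below 0, and the X-ray and mock points gather around 0.

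The plot of all 114 genes by library shows the depth of the drop in GR50 and the spread of the rest. The median log2 ratio of GR50 to the mean of the other 4 libraries was -1.72 for the GR50-low genes and -0.04 for all genes. Set against single libraries, the median log2 ratio of the GR50-low genes was -1.41 to GR6, -1.70 to XR50, -1.67 to XR6 and -1.71 to the mock. The ratio to the lowest of the 4 had a median of -1.23, so that many genes lay close to the limit. Within 0.1 of that limit on the log2 scale were 28 genes.

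The limit separated genes of nearly equal ratio. The GR50 value plus 1 was 0.491 times that of the lowest other library in CHLRE_16g680950v5 and in CHLRE_10g466800v5, and 0.490 times in CHLRE_17g746847v5, and these lay nearest to it on the inside among genes averaging 50 counts or more. Just outside were CHLRE_03g168750v5 and CHLRE_01g007251v5, both at 0.501 times, and CHLRE_10g419850v5 at 0.506 times. Genes on either side of the limit thus differed by less than their counting error. The counting interval of the ratio lay under 1 against each of the other 4 libraries for 86 of the 114 genes, among them each of the 39 averaging 50 counts or more. It lay under 0.5 against each of the 4 for only 5 genes, namely CHLRE_15g641350v5, CHLRE_16g662600v5, CHLRE_03g162800v5, CHLRE_03g205100v5 and CHLRE_12g504700v5. The genes were chosen on these same counts, so that intervals under 1 follow largely from the choice and do not test the drop.

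The same rule was applied to each of the other libraries to see how many genes 1 library alone can set apart. Low only in GR6 were 73 genes (0.522%), low only in XR50 were 46 (0.329%), low only in XR6 were 43 (0.308%), and low only in the mock were 263 (1.88%). The number in GR50 was thus larger than in the other irradiated libraries and smaller than in the mock. Of the 263 genes low only in the mock, 186 averaged 50 counts or more, whereas this held for 39 of the 114 in GR50. In the opposite direction, 515 genes were more than 2-fold higher in GR50 than in each of the other 4 libraries, against 53 genes high only in GR6, 16 in XR50, 27 in XR6 and 9 in the mock. Without replicates these counts cannot be separated from the variation of 1 library.

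**Figure D2:**
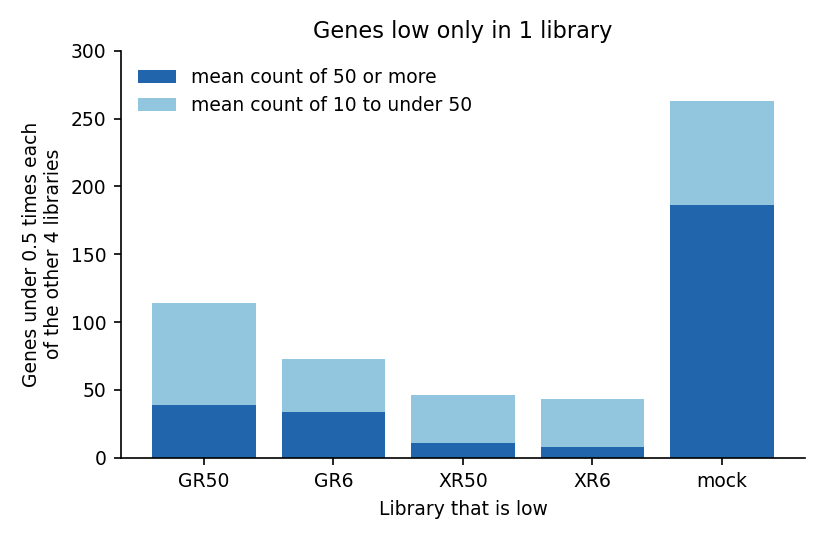
Bars give the number of genes under 0.5 times each of the other 4 libraries, for each library in turn, and the shading separates genes averaging 50 counts or more (dark) and of 10 to under 50 counts (light). GR50 has 114 such genes, 39 of them dark, and the mock has 263, 186 of them dark.

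As the bars by library show, most of the GR50-low genes fall in the range of few counts. The rule depended strongly on 1 comparator. If GR6 was not required to be above GR50, 452 genes qualified, against 139 without XR50, 138 without XR6 and 130 without the mock. In most of the genes that GR50 held low against both X-ray libraries and the mock, GR6 was thus less than 2-fold above GR50.

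The best-counted GR50-low gene was CHLRE_15g641350v5, on chromosome 15 from 1211714 to 1214869. It had 365 normalized counts in GR50, 843 in GR6, 2281 in XR50, 1830 in XR6 and 839 in the mock. GR6 and the mock were nearly equal, both X-ray libraries were far above them, and GR50 was below all. GR50 was 2.31-fold lower than GR6 (95% interval 2.04 to 2.61) and 2.30-fold lower than the mock (2.03 to 2.60), whereas XR50 was 2.72-fold higher than the mock (2.51 to 2.95) and XR6 2.18-fold higher (2.01 to 2.37). GR50 below the mock was required by the rule, whereas the places of the X-ray libraries and of GR6 against the mock were not set by it. The difference between the radiation types was not tested.

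Several other well-counted genes were nearly level outside GR50. CHLRE_02g080500v5 (chromosome 2, 1021430 to 1026165) had 208 normalized counts in GR50, 565 in GR6, 564 in XR50, 440 in XR6 and 527 in the mock. Its smallest difference was against XR6, at 2.12-fold (1.80 to 2.50). CHLRE_06g268850v5 (chromosome 6, 2474789 to 2479504) had 149 normalized counts in GR50, 343 in GR6, 322 in XR50, 387 in XR6 and 338 in the mock. In both genes the 6 Gy γ-ray library stood with the X-ray libraries and the mock, and the step down was between the γ-ray doses.

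CHLRE_10g466800v5 (chromosome 10, 6521576 to 6525594) was also nearly even outside GR50. Its normalized counts were 132 in GR50, 281 in GR6, 274 in XR50, 269 in XR6 and 314 in the mock. CHLRE_17g746847v5, on chromosome 17 from 7046796 to 7051717, had 100.0 normalized counts in GR50, 205 in GR6, 232 in XR50, 228 in XR6 and 224 in the mock. These genes were low by little more than the limit requires, and their other 4 libraries lay close together.

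In a further group GR6 lay somewhat below the X-ray libraries and the mock. CHLRE_16g680950v5 (chromosome 16, 5459222 to 5463219) had 272 normalized counts in GR50, 555 in GR6, 705 in XR50, 636 in XR6 and 643 in the mock. CHLRE_10g456600v5 (chromosome 10, 5160276 to 5171461) had 155 in GR50, 341 in GR6, 486 in XR50, 406 in XR6 and 450 in the mock. CHLRE_16g685000v5, on chromosome 16 from 4996361 to 4999199, had 93.2 normalized counts in GR50, 232 in GR6, 305 in XR50, 327 in XR6 and 321 in the mock. The order of these genes was GR50, then GR6, then the other 3 libraries, which differed little. The same order held in CHLRE_05g239650v5 (chromosome 5, 3182722 to 3188083), with 35.6 normalized counts in GR50, 95.3 in GR6, 118 in XR50, 141 in XR6 and 148 in the mock.

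Among genes averaging 50 counts or more, the ratio of GR50 to the lowest of the other libraries was smallest in CHLRE_03g162800v5, on chromosome 3 from 2885264 to 2887871. Its raw counts were 0 in GR50, 10 in GR6, 360 in XR50, 450 in XR6 and 445 in the mock. This gene was nearly undetected in both γ-ray libraries and amply counted in the other 3. With GR50 set to a floor of 3 counts, its value was 3.52-fold lower than GR6 and 125-fold lower than XR50. On the same floor it was 151-fold lower than XR6 and 164-fold lower than the mock. These folds are not lower bounds. The lower ends of the counting intervals were 2.37-fold against GR6, 101-fold against XR50, 122-fold against XR6 and 133-fold against the mock. The mock was 46.7-fold above GR6 (25.1 to 98.0), so that most of the difference from the mock was already there at 6 Gy of γ-rays.

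CHLRE_16g662600v5, on chromosome 16 from 2729467 to 2732309, had 31.7 normalized counts in GR50, 137 in GR6, 306 in XR50, 400 in XR6 and 498 in the mock. The 5 libraries were in a graded order with GR50 lowest and the mock highest. GR50 was 4.32-fold lower than GR6 (2.93 to 6.52) and 15.7-fold lower than the mock (11.0 to 23.1), and the mock was 3.64-fold above GR6. CHLRE_03g205100v5 (chromosome 3, 7548714 to 7551216) had 28.8 normalized counts in GR50, 107 in GR6, 106 in XR50, 93.9 in XR6 and 171 in the mock. Here the mock was highest, the other 3 libraries were close together, and GR50 was 3.26-fold below the lowest of them (2.14 to 5.08).

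Further genes with a low ratio, each averaging fewer counts than CHLRE_03g205100v5, follow here. CHLRE_06g278137v5 (chromosome 6, 3671133 to 3673310) had 18.3 normalized counts in GR50, 56.8 in GR6, 118 in XR50, 82.3 in XR6 and 86.2 in the mock, and its ratio to GR6 was 3.11-fold (1.82 to 5.54). CHLRE_12g523320v5 (chromosome 12, 4688285 to 4692756) had 21.1 in GR50, 61.9 in GR6, 58.9 in XR50, 84.2 in XR6 and 94.7 in the mock. CHLRE_01g005534v5, on chromosome 1 from 988191 to 989356, had 25.9 normalized counts in GR50, 81.1 in GR6, 89.9 in XR50, 70.7 in XR6 and 78.7 in the mock. Of these 3 genes, the last had the most even values outside GR50.

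In 9 of the 114 genes, GR50 was under 0.25 times each of the other libraries, but only CHLRE_16g662600v5 and CHLRE_03g162800v5 among them averaged 50 counts or more. The other 7 were CHLRE_12g504700v5, CHLRE_12g544450v5, CHLRE_08g384050v5, CHLRE_06g297049v5, CHLRE_06g278164v5, CHLRE_16g687630v5 and CHLRE_11g469600v5, each with 3 counts or fewer in GR50. CHLRE_12g504700v5 (chromosome 12, 2626053 to 2627494) had 3 raw counts in GR50, 32 in GR6, 25 in XR50, 29 in XR6 and 27 in the mock. Its smallest ratio was 8.66-fold against XR50, with an interval of 2.64 to 44.8, which shows how little such counts fix the size of a drop. CHLRE_16g687630v5 (chromosome 16, 7501449 to 7505334) had 2 raw counts in GR50, 20 in GR6, 16 in XR50, 13 in XR6 and 11 in the mock, and its ratio to the mock was 6.09-fold (1.33 to 56.5).

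How the GR50-low genes varied among the other 4 libraries was not used by the rule beyond the requirement that each lie above GR50. The log2 ratio of the highest to the lowest of these 4 had a median of 0.69 for the GR50-low genes and 0.72 for all genes. The 4 libraries lay within 2-fold of each other in 79 of the 114 genes (69.3%) and in 71.6% of all genes. The GR50-low genes were thus about as variable outside GR50 as other genes.

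The variation that there was went more often with GR6. GR6 was the lowest of the 4 libraries in 55 of the 114 genes (48.2%), and it was lowest in 28.1% of all genes. XR50 was lowest in 23 of the GR50-low genes (20.2%), against 19.9% of all genes. XR6 was lowest in 21 (18.4%), against 27.9%, and the mock in 15 (13.2%), against 24.1%. GR6 was thus more often at the bottom than over all genes.

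Between GR6 and the mock, the median log2 ratio of the GR50-low genes was -0.29, against 0.01 for all genes. Below 0 were 83 of the 114 genes, against 49% of all genes. More than 2-fold lower in GR6 than in the mock were 14 of the 114 genes (12.3%), against 3.56% of all genes. More than 2-fold higher in GR6 was 1 gene (0.877%), against 6.7% of all genes. This was CHLRE_17g708700v5 (chromosome 17, 1698925 to 1701425), with raw counts of 2 in GR50, 22 in GR6, 13 in XR50, 7 in XR6 and 9 in the mock. The GR50-low genes thus leaned to lower values at 6 Gy of γ-rays as well.

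The X-ray libraries leaned less against the mock. The median log2 ratio to the mock was -0.04 in XR50 and -0.06 in XR6 for the GR50-low genes. Below 0 were 62 of the 114 genes in XR50 and 65 in XR6, against 50.7% and 49.6% of all genes. In XR50, 1 gene was more than 2-fold lower than in the mock and 7 genes (6.14%) were more than 2-fold higher, against 2.59% and 5.16% of all genes. In XR6, 1 gene was more than 2-fold lower and 4 genes (3.51%) were more than 2-fold higher, against 3.01% and 6.92% of all genes. The share of higher genes was near the background in XR50 and below it in XR6, and with counts scaled by library totals, which raised XR6 against the mock by 0.21 on the log2 scale, 9 of the 114 genes (7.89%) and 11.0% of all genes were more than 2-fold higher in XR6.

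Against the X-ray libraries, GR6 was again the lower. More than 2-fold lower in GR6 than in XR50 were 20 of the 114 genes (17.5%), against 7.08% of all genes, and 0 genes were more than 2-fold higher, against 7.17%. The median log2 ratio of GR6 to XR50 was -0.27. Between GR6 and XR6, which share the dose, 20 genes (17.5%) were more than 2-fold lower in GR6, against 7.32% of all genes, 1 gene was higher, against 7.26%, and the median log2 ratio was -0.22. All comparisons with GR6 use the same library, and its handling and exposure time were those of GR50.

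XR50 and XR6 differed little in these genes. The median log2 ratio of XR50 to XR6 was 0.06, with 5 genes (4.39%) more than 2-fold lower in XR50, against 2.63% of all genes, and 2 genes (1.75%) more than 2-fold higher, against 2.53% of all genes. The 5 were CHLRE_07g331200v5, CHLRE_10g426900v5, CHLRE_09g406550v5, CHLRE_14g621400v5 and CHLRE_12g534400v5. CHLRE_07g331200v5 had 3 raw counts in GR50, 15 in GR6, 13 in XR50, 36 in XR6 and 16 in the mock, and XR6 alone stood apart upwards. CHLRE_10g426900v5 had 3 raw counts in GR50, 13 in GR6, 10 in XR50, 28 in XR6 and 10 in the mock, with the same single high library. CHLRE_09g406550v5 had 3 raw counts in GR50, 7 in GR6, 7 in XR50, 20 in XR6 and 17 in the mock, and here both 50 Gy libraries and GR6 were below XR6 and the mock.

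The 2 genes higher in XR50 were CHLRE_17g718450v5 and CHLRE_06g268350v5. CHLRE_17g718450v5 (chromosome 17, 2751732 to 2755483) had 7.69 normalized counts in GR50, 28.4 in GR6, 41.9 in XR50, 19.4 in XR6 and 38.3 in the mock. CHLRE_06g268350v5 (chromosome 6, 2415189 to 2416014) had 11.5 in GR50, 31.4 in GR6, 79.9 in XR50, 38.7 in XR6 and 55.3 in the mock. In these genes the higher dose went with more counts under X-rays, whereas fewer counts at the higher dose of γ-rays were required by the rule. The difference between the radiation types was not tested.

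In 8 of the 114 genes (7.02%), GR6 was also under 0.5 times each of XR50, XR6 and the mock, as it was in 288 of all genes, or 2.06%. They include CHLRE_03g162800v5 and CHLRE_16g662600v5, described above. CHLRE_08g366700v5 (chromosome 8, 1840883 to 1844767) had 41.3 normalized counts in GR50, 106 in GR6, 294 in XR50, 276 in XR6 and 295 in the mock. Both X-ray libraries and the mock were level, GR6 was lower, and GR50 was a further 2.58-fold below GR6 (1.79 to 3.76) and 7.13-fold below the mock (5.16 to 10.1).

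CHLRE_06g282350v5 (chromosome 6, 5248106 to 5254667) had 13.5 normalized counts in GR50, 38.5 in GR6, 226 in XR50, 211 in XR6 and 143 in the mock. CHLRE_16g655200v5 (chromosome 16, 1786367 to 1792990) had 16.3 in GR50, 35.5 in GR6, 169 in XR50, 241 in XR6 and 176 in the mock. CHLRE_06g281600v5 (chromosome 6, 5175307 to 5180855) had 13.5 in GR50, 32.5 in GR6, 123 in XR50, 147 in XR6 and 86.2 in the mock. In these 3 genes GR50 was between 2.17-fold and 2.86-fold below GR6 and between 6.40-fold and 10.7-fold below the mock. That both γ-ray libraries lay below the others follows from the choice of these genes. In CHLRE_06g282350v5 and CHLRE_06g281600v5 both X-ray libraries were also above the mock, whereas the γ-ray libraries were below it by the choice of the genes.

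The last 2 of the 8 had few counts. CHLRE_06g305500v5 (chromosome 6, 8201274 to 8204185) had 2 raw counts in GR50, 7 in GR6, 19 in XR50, 17 in XR6 and 30 in the mock. CHLRE_04g231320v5 (chromosome 4, 3953316 to 3954667) had 0 raw counts in GR50, 1 in GR6, 18 in XR50, 36 in XR6 and 23 in the mock. No fold is given between its γ-ray libraries, both of which were under the floor. GR50 set to the floor was 6.23-fold lower than XR50, 12.1-fold lower than XR6 and 8.49-fold lower than the mock. These folds are not lower bounds. The lower ends of the counting intervals were 4.57-fold against XR50, 9.34-fold against XR6 and 6.36-fold against the mock.

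**Figure D3:**
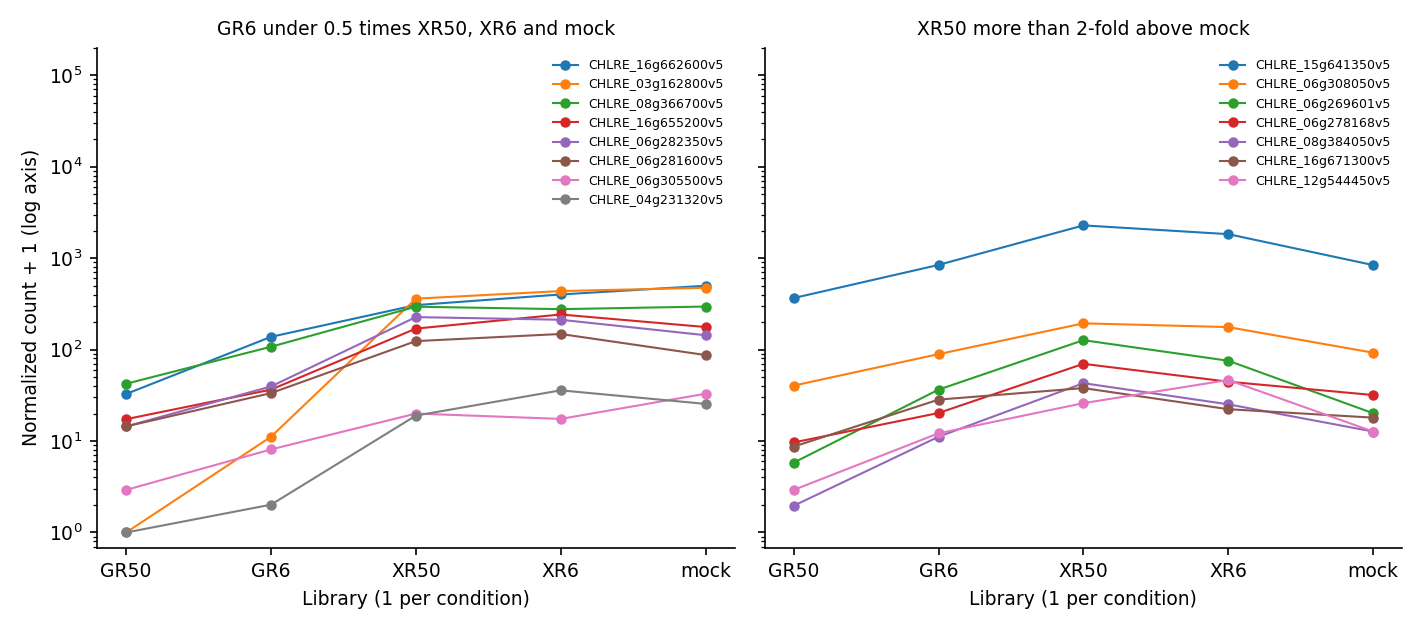
Normalized counts plus 1 (log axis) in GR50, GR6, XR50, XR6 and the mock for the 8 genes that were also low in GR6 (left) and for the 7 genes more than 2-fold higher in XR50 than in the mock (right), with a line joining the 5 libraries of a gene. On the left both γ-ray libraries lie below the other 3 by the choice of the genes, and on the right XR50 is the highest library in 6 of the 7 genes.

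The profiles of single genes set these 8 beside the 7 genes that were more than 2-fold higher in XR50 than in the mock. These 7 were 6.14% of the GR50-low genes, against 5.16% of all genes. Among the 7, both X-ray libraries were more than 2-fold above the mock in CHLRE_15g641350v5, CHLRE_06g269601v5 and CHLRE_12g544450v5. CHLRE_06g269601v5 (chromosome 6, 2606422 to 2607271) had 4.81 normalized counts in GR50, 35.5 in GR6, 126 in XR50, 74.6 in XR6 and 19.1 in the mock. All irradiated libraries but GR50 were above the mock, and XR50 was 6.57-fold above it (3.99 to 11.4).

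CHLRE_06g308050v5 (chromosome 6, 8528056 to 8530478) had 39.4 normalized counts in GR50, 88.2 in GR6, 193 in XR50, 175 in XR6 and 91.5 in the mock. Its pattern was that of CHLRE_15g641350v5 at lower counts, with GR6 near the mock and both X-ray libraries above. CHLRE_06g278168v5 (chromosome 6, 3816370 to 3818661) had 8.65 in GR50, 19.3 in GR6, 68.9 in XR50, 43.6 in XR6 and 30.9 in the mock. CHLRE_12g544450v5 had 2 raw counts in GR50, 11 in GR6, 25 in XR50, 47 in XR6 and 11 in the mock, and was the gene of the 7 in which XR6 exceeded XR50. CHLRE_08g384050v5 had 1 raw count in GR50, 10 in GR6, 42 in XR50, 25 in XR6 and 11 in the mock, and CHLRE_16g671300v5 had 8 in GR50, 27 in GR6, 37 in XR50, 22 in XR6 and 16 in the mock.

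The GR50-low genes were shorter than other genes. Their annotated span had a median of 3522.5 bp, against 4684.5 bp for all genes. Genes of few counts are shorter in general, but within a mean of 10 to under 50 counts the median was 3376 bp for the GR50-low genes and 4136 bp for all, and at 50 counts or more it was 4019 bp and 4866 bp. Above 6000 bp there were 15 GR50-low genes among 4799, or 0.313%.

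The difference was largest at the short end. Under 1500 bp were 19 of the 114 genes (16.7%), against 465 of 13976 genes (3.33%). Of these 19, 17 had a mean of under 50 counts, which was 22.7% of the GR50-low genes of that range, against 5.65% of all genes in it. At 50 counts or more the shares were 5.13% and 2.63%. Among the genes low only in XR6, 7 of 43 (16.3%) were as short, whereas 3 of 73 (4.11%) were in GR6, 1 of 46 (2.17%) in XR50 and 4 of 263 (1.52%) in the mock. A high share of short genes was thus shared with the set low only in XR6. Among genes high only in 1 library, 5 of 16 in XR50 (31.2%) and 6 of 53 in GR6 (11.3%) were as short. This held for 10 of 515 (1.94%) in GR50, and for 0 in XR6 and in the mock.

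**Figure D4:**
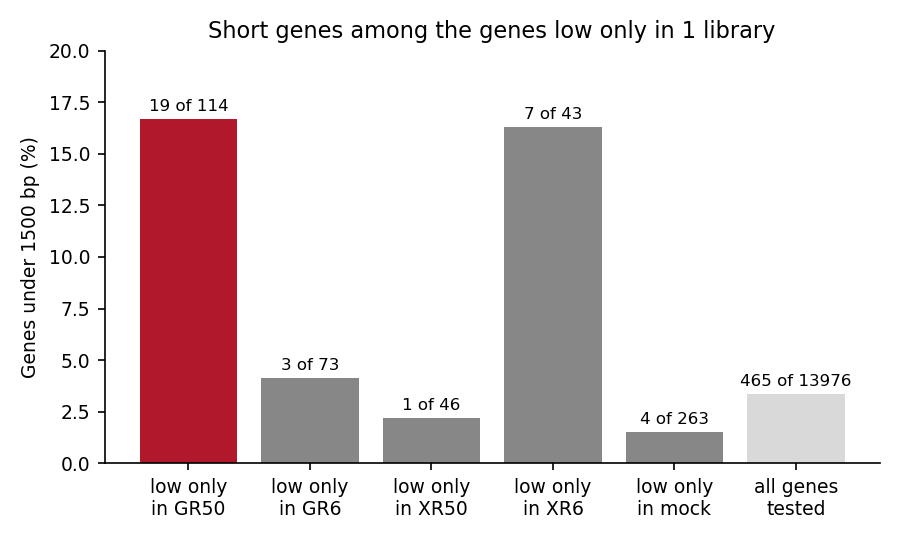
Bars give the percentage of genes with an annotated span under 1500 bp among the genes low only in each library and among all 13976 genes, and the number over each bar gives the genes behind it. GR50 (19 of 114) and XR6 (7 of 43) stand above the 465 of 13976 of all genes.

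Summed over the 19 short genes, the normalized counts were 124 in GR50, 445 in GR6, 644 in XR50, 499 in XR6 and 484 in the mock. The short genes that did not meet the rule, which the bars of short genes do not show, also leaned to lower values in GR50. Over these 446 genes, the median log2 ratio of GR50 to the mean of the other libraries was -0.17, and 282 of them (63.2%) lay below 0. Such a lean was not particular to GR50: over all 465 short genes, the median log2 ratio of a library to the mean of the other 4 was -0.21 in GR50, -0.09 in GR6, 0.14 in XR50, -0.25 in XR6 and 0.18 in the mock. Of the 19, 8 lie on chromosome 6, 4 on chromosome 17 and 3 on chromosome 12. How all 465 short genes are spread over the chromosomes was not counted, so that these numbers do not show a grouping.

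The shortest were named after their values were seen. CHLRE_17g714600v5 (chromosome 17, 2347891 to 2348326), of 436 bp, had raw counts of 5 in GR50, 19 in GR6, 17 in XR50, 23 in XR6 and 19 in the mock. CHLRE_12g504850v5 (chromosome 12, 2623177 to 2623742), of 566 bp, had 4 in GR50, 14 in GR6, 16 in XR50, 16 in XR6 and 21 in the mock. CHLRE_06g294900v5, of 572 bp, had 5 raw counts in GR50, 13 in GR6, 13 in XR50, 16 in XR6 and 10 in the mock. Outside GR50 each of these was nearly level, and each rests on 5 or fewer reads in GR50.

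Along the genome, 20 of the 114 genes lay on chromosome 6, which was 1.58% of its 1262 genes, and 12 on chromosome 17, or 1.34% of 894. On chromosome 2 there were 3, or 0.258% of 1164. A further GR50-low gene lay within 20 kb of 16 of the 114 genes (14.0%), whereas 4.97% of all genes had such a neighbour. These 16 genes formed 7 groups, of which 2 held 3 genes and 5 held 2.

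The group on chromosome 12 spans 4.32 kb from 2623177 to 2627494 and holds 4 annotated genes, of which 3 were GR50-low. CHLRE_12g504850v5 and CHLRE_12g504800v5 are adjacent with 120 bp between them, and CHLRE_12g504700v5 follows after 1 gene whose raw counts were too few to enter. CHLRE_12g504800v5 had 7.69 normalized counts in GR50, 27.4 in GR6, 29.0 in XR50, 18.4 in XR6 and 17.0 in the mock. The 3 genes were low together in GR50 but did not share an order among the other libraries, since the highest was the mock in CHLRE_12g504850v5, XR50 in CHLRE_12g504800v5 and GR6 in CHLRE_12g504700v5.

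The group on chromosome 17 spans 5.99 kb from 1695439 to 1701425 and holds 4 genes, of which CHLRE_17g708550v5, CHLRE_17g708650v5 and CHLRE_17g708700v5 were GR50-low. CHLRE_17g708550v5 had 4.81 normalized counts in GR50, 12.2 in GR6, 16.0 in XR50, 20.3 in XR6 and 11.7 in the mock. CHLRE_17g708650v5 had 6.73 in GR50, 24.3 in GR6, 19.0 in XR50, 26.1 in XR6 and 20.2 in the mock. The gene between them, CHLRE_17g708600v5, was not low, with 15.4 normalized counts in GR50, 17.2 in GR6, 29.0 in XR50, 9.68 in XR6 and 19.1 in the mock. The low values in GR50 thus did not run through the whole stretch.

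**Figure D5:**
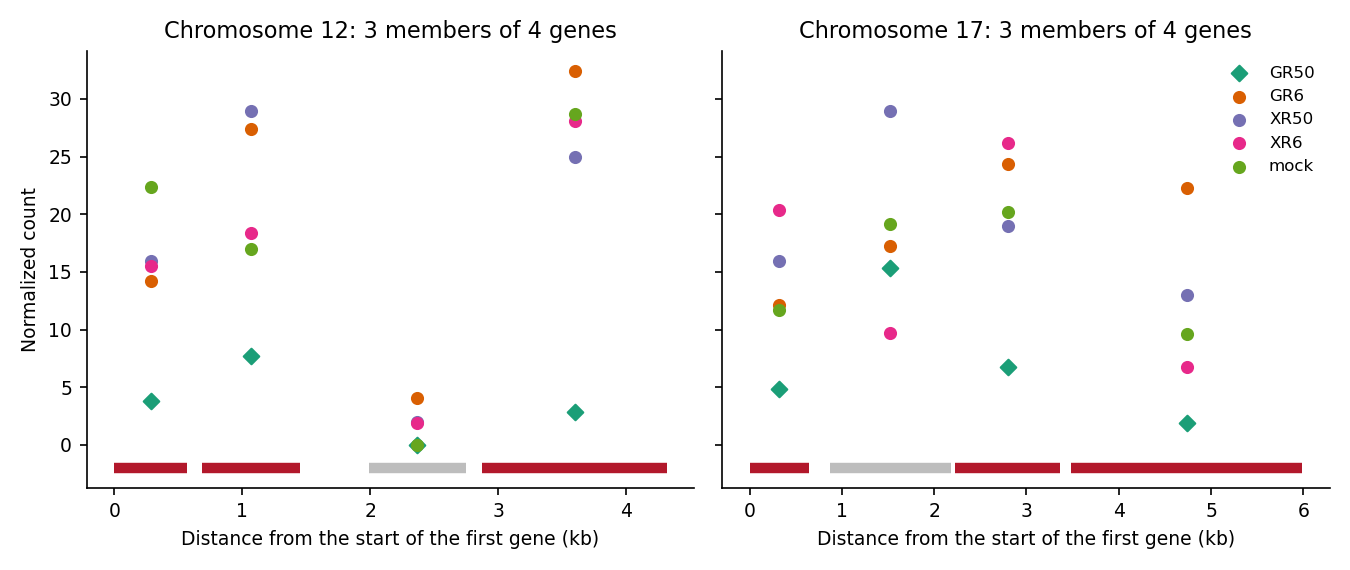
Normalized counts in the 5 libraries for the genes of the groups on chromosomes 12 (left) and 17 (right), placed by distance in kb from the start of the first gene, with the gene spans as bars at the bottom (red, GR50-low; grey, not). Diamonds are GR50, which is the lowest point in each of the 3 red genes of either group and not in the grey gene of chromosome 17, where XR6 is at 9.68.

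The plot of these groups shows no normalized count above 32.5, where single reads matter. The third adjacent pair, CHLRE_01g030900v5 and CHLRE_01g030950v5 on chromosome 1, lies between 4531787 and 4538005 with 164 bp between the genes. CHLRE_01g030950v5 had 32.7 normalized counts in GR50, 76.1 in GR6, 103 in XR50, 84.2 in XR6 and 103 in the mock. CHLRE_01g030900v5 had 6.73 in GR50, 20.3 in GR6, 23.0 in XR50, 21.3 in XR6 and 37.2 in the mock. Both had GR6 as the lowest and the mock as the highest of the other libraries.

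The genes next to a GR50-low gene that did not meet the rule themselves leaned downwards too. Over 177 such neighbours, the median log2 ratio of GR50 to the mean of the other libraries was -0.20, with 67.2% of them below 0. Over all genes that did not meet the rule it was -0.03, with 52.2% below 0. The neighbours were not chosen by the rule, but they share the libraries with the genes that were.

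Distances of GR50-low genes were taken to the ORFs that the study names CrHTR2, a histone H3. These are CHLRE_06g275750v5 and CHLRE_12g505500v5. Of the GR50-low genes listed by distance, only CHLRE_06g275850v5 lay within 20 kb of either ORF. The other genes given here lay farther off, and more distant ones, from 96.6 to 545 kb away, are not described. How many of all genes lie as close was not counted, so that the distances do not show that GR50-low genes gather there. CHLRE_06g275850v5 lies 1318 bp from CHLRE_06g275750v5 on chromosome 6 and had 4.81 normalized counts in GR50, 23.3 in GR6, 26.0 in XR50, 12.6 in XR6 and 14.9 in the mock. CHLRE_06g276600v5, at 63.7 kb, had 5.77 in GR50, 14.2 in GR6, 34.9 in XR50, 19.4 in XR6 and 22.3 in the mock. CHLRE_06g276800v5, at 79.2 kb, had 4.81 in GR50, 12.2 in GR6, 26.0 in XR50, 18.4 in XR6 and 18.1 in the mock. In these 3 genes XR50 was the highest library and GR50 the lowest. The group on chromosome 12 lies between 62.0 and 64.9 kb from the other ORF, CHLRE_12g505500v5. The ORFs themselves had too few reads to compare, with 0 raw counts in GR50, 1 in GR6, 2 in XR50, 0 in XR6 and 4 in the mock for CHLRE_06g275750v5, and 7 in GR50, 6 in GR6, 16 in XR50, 10 in XR6 and 2 in the mock for CHLRE_12g505500v5.

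Overlap with another annotated gene was found for 2 of the 114 genes (1.75%) and for 2.37% of all genes, and the values of these 2 are uncertain because whether HTSeq-count used the strand is not given in the sources used here. More than 1 annotated transcript was found for 10.5% of the GR50-low genes and for 8.73% of all genes. Reads with several alignments were not assigned to a gene and made up 3.73% of the listed reads in GR50, 3.06% in GR6, 3.02% in XR50, 4.39% in XR6 and 2.95% in the mock, and how many of the short genes have near-identical copies was not analysed here.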

How the data were processed

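RNA was sequenced by the authors from stranded paired-end libraries of total RNA, and the deposited values are raw counts per gene, 1 column for each of the 5 conditions, whereas the methods speak of 3 biological replicates. The submitters' processing notes name FastQC 0.11.5, Trimmomatic 0.36, HISAT2 2.2.1, HTSeq 0.11.3 and edgeR. Positions refer to the v5.5 genome. All 17742 genes matched the reference by name, and 0 had a symbol other than the ORF name. The reference held no sequence and no product, so that the planned comparisons of products, exons, promoters and proteins were not made.

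Size factors were medians of ratios over the 15141 genes above 0 in all libraries, and only reads on genes (49.3% to 55.9% of those listed) entered them. A pseudocount of 1, a mean of at least 10 counts, a floor of 3 counts and 95% intervals were used. Log2 ratios and counts past 2-fold are on the normalized count plus 1 scale, whereas folds with an interval carry no pseudocount. The members and lists were chosen with earlier results of these data known. Named genes were those with the highest counts, the lowest ratio to the other libraries at a mean of at least 50 counts, the largest XR50 to XR6 and GR6 to mock differences, adjacent pairs and the genes nearest the limit. Further genes were named after their values were seen. Python 3.11.15, numpy 2.4.6, pandas 2.3.3, scipy 1.17.1, matplotlib 3.10.9, R 4.3.3 and edgeR 4.0.16 (TMM only) were used, and the rule was tested on simulated data. No comparison was paired, since each condition has 1 library. Alternatives were library totals, TMM, other pseudocounts, filters and thresholds, equal depth and the rule without each library.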

Additional observations from a re-analysis of the deposited data

Results flagged for a closer look

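In CHLRE_17g718450v5, XR50 was 2.17-fold above XR6, whereas GR50 was below GR6, and in CHLRE_06g268350v5, XR50 was 2.06-fold above XR6 with GR50 again below GR6. The lower value at the higher dose of γ-rays was required by the rule, and only the rise under X-rays was not set by it. Such a rise of more than 2-fold was seen in 1.75% of the GR50-low genes and in 2.53% of all genes. Each value rests on 1 library, and the difference between the radiation types was not tested.

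Reads not assigned to a gene were outside all comparisons. In GR50, 0.561% of the listed reads were ambiguous between genes, against 0.376% in the mock. Reads of too low alignment quality made up 4.87% in GR50 and 3.91% in the mock, and reads with several alignments 3.73% in GR50 and 2.95% in the mock. XR6 exceeded GR50 in each of these shares.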

How the results depend on the processing

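The number of GR50-low genes was 114 with TMM, all of them shared, 121 with library totals (110 shared), 123 with a pseudocount of 0.5 (114 shared) and 105 at equal depth (95 shared). Relative to the mock, library totals raised the normalized values by 0.21 on the log2 scale in XR6 and by at most 0.09 in the other libraries, and 9 of the 121 genes (7.44%) were then more than 2-fold higher in XR6 than in the mock, against 11.0% of all genes. Without GR6 among the comparators the number was 452, and without the mock, XR6 or XR50 it was between 130 and 139. With a pseudocount of 5 it was 68, and 39 genes were low only in GR6, 22 only in XR50 and 12 only in XR6. Without the filter these numbers were 219 in GR50, 119 in GR6, 113 in XR50 and 115 in XR6, and with a mean of at least 50 counts 39, 34, 11 and 8. Under 0.25 times each other library were 9 genes in GR50, 4 in GR6, 1 in XR50, 3 in XR6 and 96 in the mock, and the median log2 ratio of GR50 to the mean of the others was then -2.93. A counting interval under 0.5 of each other library left 5 genes.

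Of the genes that met the rule under each setting, those more than 2-fold lower in GR6 numbered 10 against XR50, 8 against XR6 and 7 against the mock with a pseudocount of 5. They numbered 39, 41 and 32 in the same order without the filter, and 10, 9 and 8 with a mean of at least 50 counts. Of the recomputed main values, these 29 moved and 45 stayed within 1.5 times or, for the median, within the counting error. The values of the 33 named GR50-low genes moved by less than their counting intervals with library totals and with TMM. With library totals, however, CHLRE_12g504800v5 of the chromosome 12 group came to lie just outside the limit. Its log2 ratio of GR50 to the lowest other library was then -0.987. Depth limits most of the GR50-low genes, 75 of which had a mean of under 50 counts. No paired analysis was possible because each condition has 1 library.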
